A study of Mus musculus with 67 samples.

Results

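The 10 genes described here mark enteroendocrine cells, the hormone-secreting cells of the intestinal epithelium. They were taken by name from the table of 29579 genes and all 10 were listed. They are the transcription factors Neurog3 and Neurod1, the granins Chga and Chgb, the serotonin-synthesis enzyme gene Tph1, the tachykinin precursor gene Tac1, and the hormone genes Cck (cholecystokinin), Sct (secretin), Gcg (proglucagon) and Gip (glucose-dependent insulinotropic polypeptide). Their levels were followed in 67 bulk RNA-seq libraries, 49 of mouse small intestinal organoids in 10 media and 18 of small intestinal crypts in 9 groups, to find out how the media, irradiation, and treatment with VPA and EPZ6438 changed them.

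Organoids were grown from crypts of the proximal small intestine of mice aged 6 to 12 weeks. The 8C medium (7 libraries) held VPA at 500 µM, EPZ6438 at 2 µM, LDN193189 at 0.2 µM, GSK3iXV at 0.1 µM, Pexmetinib at 1 µM, EGF at 50 ng/mL, bFGF at 20 ng/mL and R-Spondin 1 conditioned medium at 10%. VPA inhibits histone deacetylases, EPZ6438 inhibits the histone methyltransferase EZH2, LDN193189 blocks BMP receptors, GSK3iXV inhibits the kinase GSK3, and Pexmetinib inhibits the kinases p38 and Tie2. 8C -V (6 libraries) lacked VPA, 8C -E (7) lacked EPZ6438, and 8C -VE (7) lacked both. 8C -bFGF, 8C -EGF, 8C -GSK3i and 8C -Pex (3 libraries each) each lacked the component named. The ENR medium (7 libraries) held EGF at 50 ng/mL, noggin at 100 ng/mL and R-Spondin 1 at 500 ng/mL, and ENR +VE (3 libraries) added VPA and EPZ6438 at doses that the labels do not give. Crypts came from normal mice (Normal) or from 8-week-old female mice that received 12 Gy of radiation, sampled on days 1, 2, 3 and 5 (IR), without treatment or after daily gavage of VPA at 40 mg/kg and EPZ6438 at 0.6 mg/kg (IR +VE), with 2 libraries in each group. The strain of the organoid donors and the age of the Normal mice are not given for these libraries. The labels do not say whether replicates came from separate mice or cultures. Figure legends of the study count replicates as mice in several panels on organoids, those with single components of 8C left out included, and on crypts, but libraries are not tied to mice there, so p-values may measure only the spread between these libraries.

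Enteroendocrine cells arise from crypt progenitors that escape Notch signaling, express Atoh1 and then pass through a short phase of Neurog3 expression. Neurod1 acts after Neurog3. Mature cells store peptides in dense-core granules that contain chromogranins, and subtypes differ in what they secrete: enterochromaffin cells make serotonin through Tph1 and often tachykinins, I cells make cholecystokinin, S cells secretin, L cells proglucagon-derived peptides and K cells GIP.

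The starts of the genes differ widely in sequence, as shown by the 250 bases before the start site of 4 genes whose levels moved in different ways across the media. The windows come from RefSeq (GRCm38.p6), are written from 5′ to 3′ on the strand of the gene, and show matches in capitals. The motifs searched, on both strands, were a TATA box (letters TATAAA), an E-box of the kind that factors such as NEUROG3 and NEUROD1 bind (letters CAGATG) and the core of a cAMP response element (letters TGACGT).
Neurog3, chr10:62132840-62133089, plus strand: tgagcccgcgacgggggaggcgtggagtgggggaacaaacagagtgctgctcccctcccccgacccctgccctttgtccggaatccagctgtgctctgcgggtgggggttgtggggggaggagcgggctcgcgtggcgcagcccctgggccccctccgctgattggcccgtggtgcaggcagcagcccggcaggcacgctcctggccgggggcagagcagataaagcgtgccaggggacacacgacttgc
Chga, chr12:102554691-102554940, plus strand: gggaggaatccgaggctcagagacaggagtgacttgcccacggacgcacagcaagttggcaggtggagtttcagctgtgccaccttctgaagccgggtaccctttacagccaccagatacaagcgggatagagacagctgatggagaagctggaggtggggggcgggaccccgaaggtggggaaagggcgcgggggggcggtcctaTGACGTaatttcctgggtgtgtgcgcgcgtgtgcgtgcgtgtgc
Gcg, chr2:62483654-62483903, minus strand: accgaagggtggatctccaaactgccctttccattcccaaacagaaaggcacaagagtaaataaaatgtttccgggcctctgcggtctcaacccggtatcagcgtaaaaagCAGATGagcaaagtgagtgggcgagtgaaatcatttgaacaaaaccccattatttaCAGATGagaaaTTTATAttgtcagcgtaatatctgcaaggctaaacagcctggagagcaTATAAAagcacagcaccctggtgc
Gip, chr11:96024295-96024544, plus strand: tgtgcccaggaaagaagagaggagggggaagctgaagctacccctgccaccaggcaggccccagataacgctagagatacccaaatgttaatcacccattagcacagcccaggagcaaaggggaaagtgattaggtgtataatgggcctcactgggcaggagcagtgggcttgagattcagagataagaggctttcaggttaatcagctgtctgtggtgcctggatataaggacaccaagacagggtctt

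All 10 genes had such a window, Tph1 with 2. The number of CpG dinucleotides in the window was 18 for Neurog3, 22 for Neurod1, 16 for Chga, 26 for Chgb, 17 for Tac1, 22 for Sct, 9 for Cck, 7 for Gcg and 1 for Gip, and 5 and 19 for the windows of Tph1. Over all 32841 windows the median was 6 and the quartiles were 2 and 16, so that Neurog3, Neurod1, Chgb, Sct, Tac1 and the second window of Tph1 lay above the upper quartile and Gip below the lower one. TATAAA matched Sct at base -28 and Gcg at base -24 and, on the opposite strand, at -72, where 12.4% of all windows held it. CAGATG matched Gcg at -139 and -83, Cck at -30, Tac1 at -173 and Sct at -242, where 14.4% of all windows held it. TGACGT matched Chga at -44 and Chgb at -72 and, overlapping it on the opposite strand, at -70, where 6.47% of all windows held it. None of these letters matched in the windows of Neurog3, Neurod1, Tph1 and Gip.

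The genes lie on 7 chromosomes of mm10. Neurog3 is at chr10:62133090-62134763, Neurod1 at chr2:79452521-79456751, Gcg at chr2:62474530-62483650, Chgb at chr2:132781278-132795079, Chga at chr12:102554969-102565028, Tph1 at chr7:46644641-46672537, Sct at chr7:141278330-141279133, Tac1 at chr6:7554879-7565834, Cck at chr9:121489824-121495694 and Gip at chr11:96024545-96030831. Exons of Neurog3 overlap those of Fam241b on the opposite strand, which was listed at 24.7 to 56.2 TPM in organoids. Whether the counting used strand is not stated, so the level of Neurog3 is uncertain. Fam241b averaged 41.1 TPM in 8C, 37.5 TPM in ENR and 38.4 TPM in ENR +VE. In crypts it averaged 36.1 TPM in Normal, 17.6 TPM on day 2, 20.8 TPM on day 3 and 25.4 TPM on day 5 after irradiation, far above Neurog3 and lower than in Normal as Neurog3 was, and its part in the changes of Neurog3 was not tested. Those of Neurod1 overlap those of Cerkl on the same strand, which did not exceed 0.522 TPM in organoids. They also overlap Gm26755 on the opposite strand.

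Values are in TPM, the number of transcripts of a gene scaled to a common total and to transcript length, so levels can be set side by side between genes. The totals as deposited were not fixed, at 983801 to 988144 in organoids and 819346 to 910935 in crypts. TPM keeps no read number, and the depth of the libraries is unknown. Mitochondrial transcripts took 1.52% to 6.64% of the total in organoids and 10.6% to 48.4% in crypts, and the sets were not compared by level. Epithelial markers (Epcam, Cdh1, Vil1, Krt8, Krt18, Cdx2) were all at 1 TPM or more on average in both sets. In organoids, markers of immune cells summed to at most 15.9 TPM and those of stroma and muscle to at most 6.11 TPM, with Ptprc, Cd3e, Acta2 and Myh11 under 0.1 TPM on average. No pair of libraries held identical values. In bulk RNA, fewer cells of a type and less RNA per cell cannot be told apart, which holds for every change given below.

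The most abundant of the 10 genes in organoids was Chgb, with a mean of 677 TPM over the 49 libraries and a range of 213 to 1685 TPM. Over these libraries, which are not equally many in each medium, the means were 244 TPM for Gip, 145 TPM for Chga, 131 TPM for Cck, 44.2 TPM for Neurog3, 39.1 TPM for Sct, 38.9 TPM for Tac1, 16.6 TPM for Gcg, 9.64 TPM for Tph1 and 4.56 TPM for Neurod1. The order of the genes was not the same within each medium, since Chga (154 TPM) lay above Gip (114 TPM) in 8C, and Cck (68.6 TPM) and Neurog3 (51.4 TPM) above Gip (39.5 TPM) and Chga (19.6 TPM) in 8C -E. Gcg ranged from 0 to 104 TPM, Gip from 10.9 to 710 TPM and Chga from 9.34 to 558 TPM. The order of the media was not the same for each gene. 8C -Pex had the highest mean for Chga, Chgb, Tph1 and Cck, 8C -EGF for Neurog3 and Tac1, ENR +VE for Neurod1, Sct and Gip, and ENR for Gcg. 8C -E had the lowest mean for 7 genes, namely Neurod1, Chga, Chgb, Tph1, Tac1, Sct and Gip, whereas 8C -bFGF was lowest for Cck and Gcg and ENR for Neurog3. Neighbours in this order mostly overlapped. The exceptions were Chgb between 8C -Pex and 8C -EGF, Sct between ENR +VE and 8C -Pex, Tph1 between ENR and 8C -GSK3i and between 8C -bFGF and 8C -E, Cck between 8C -GSK3i and 8C -bFGF, Gcg between 8C -Pex and 8C -EGF and between 8C -GSK3i and 8C -bFGF, and Gip between 8C -GSK3i and 8C -bFGF.

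**Figure D1:**
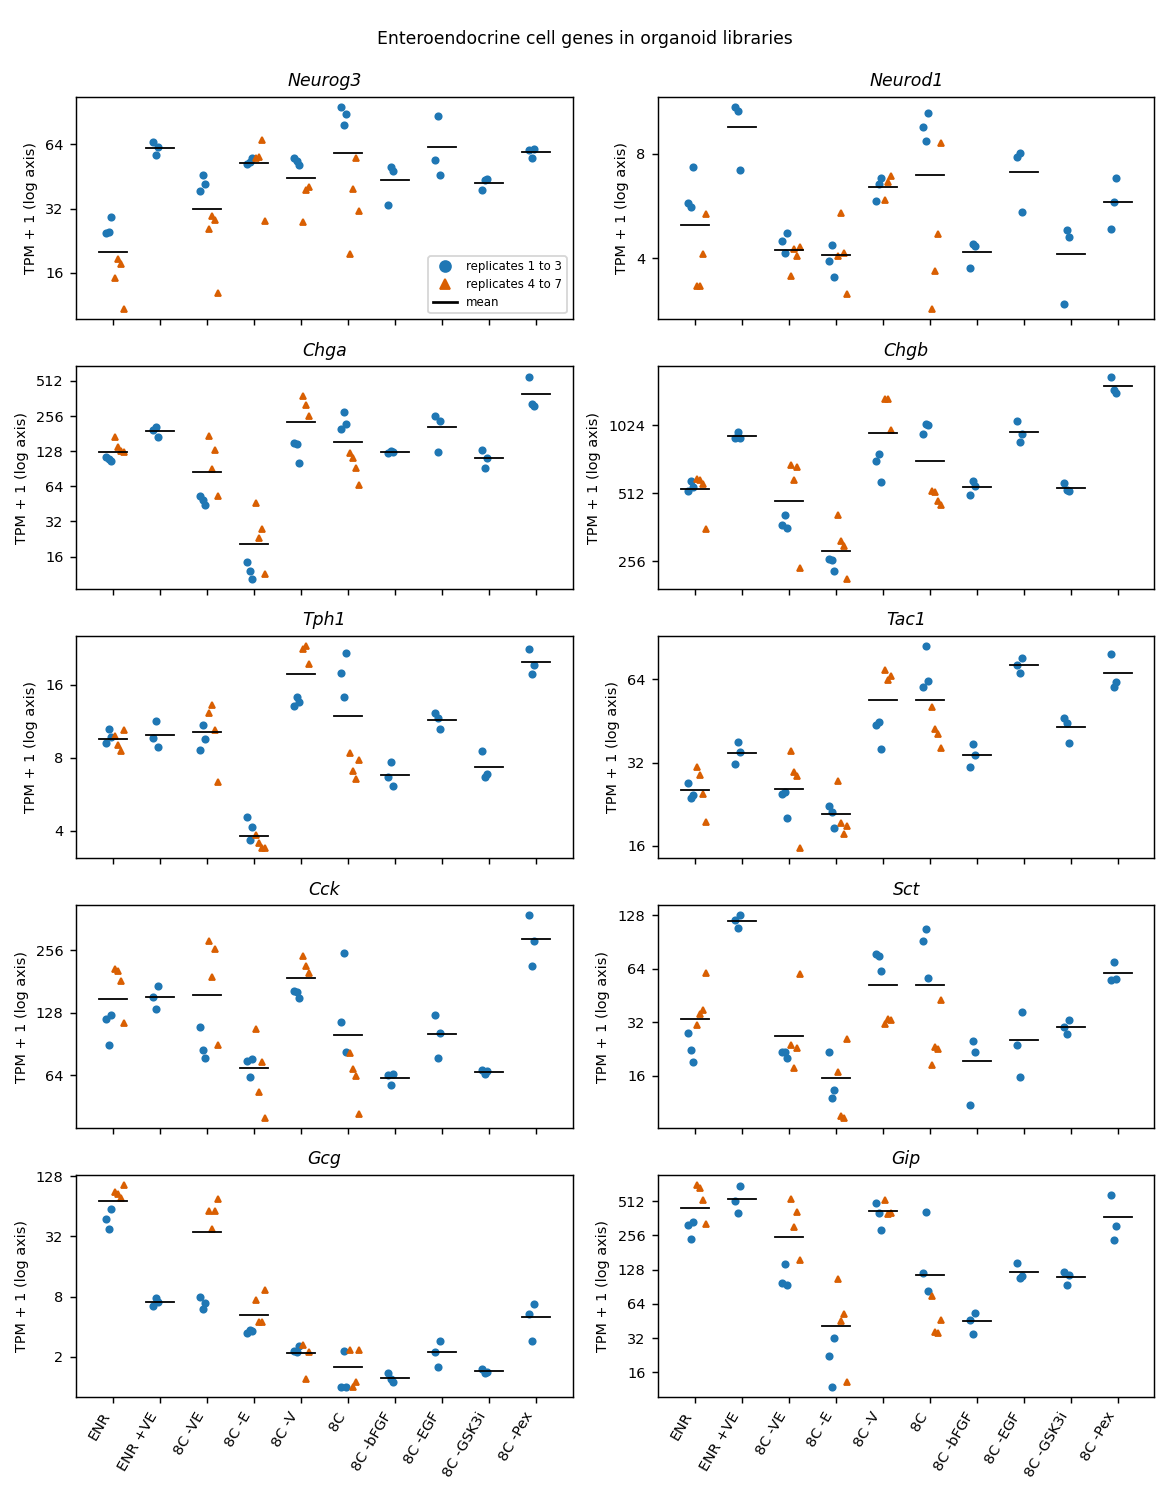
Level of each gene in the 49 organoid libraries, as TPM + 1 on a log axis, by culture medium. Circles are replicates 1 to 3, triangles replicates 4 to 7 and bars group means. Gcg is high in ENR and near the floor in 8C, and Chga is lowest in 8C -E. In 8C the circles lie above the triangles for every gene but Gcg, narrowly for Neurod1, Cck and Gip.

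Libraries with replicate numbers 1 to 3 and those with 4 to 7 stood apart within several media. In 8C, Chga was at 196 to 274 TPM in numbers 1 to 3 and at 64.7 to 122 TPM in numbers 4 to 7. Chgb was at 933 to 1040 TPM and 454 to 521 TPM in these sets, Neurog3 at 78.1 to 94.8 TPM and 18.6 to 54.6 TPM, Tph1 at 13.2 to 20.6 TPM and 5.55 to 7.40 TPM, and Sct at 55.7 to 106 TPM and 17.2 to 41.4 TPM. In 8C -V the order was turned for Chga, at 99.5 to 150 TPM in numbers 1 to 3 and 255 to 382 TPM in numbers 4 to 6. The labels do not say what the numbers stand for. Values within each set are therefore given for several of the results.

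Between 8C and ENR, Gcg and Gip were downregulated in 8C, and Neurog3 and Tac1 were upregulated. Differences were tested with limma on log2(TPM + 1) over every gene that averaged 1 TPM or more in the libraries fitted, and a gene was called at an adjusted p under 0.05 (Benjamini-Hochberg, over all genes) with a change of at least 2-fold on that scale, which understates changes of weakly expressed genes. Of the 10 genes, 2 were called higher, where 11.9% of all genes tested were, and 2 lower, where 3.31% were. The share of higher calls is thus near that of all genes. The median log2 fold change was 0.25 for the 10 genes and 0.08 for all genes tested.

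Gcg, which encodes the precursor of glucagon and the incretin GLP-1, was listed at 0, 1.31, 0, 1.35, 0, 0.123 and 1.35 TPM in the 7 libraries of 8C and at 37.3 TPM (lowest), 76.5 TPM (median) and 104 TPM (highest) in ENR. The groups did not overlap, and the log2 fold change was -5.54 (SE 0.29, adjusted p = 3.96e-10). Gip, which encodes the incretin of K cells, had a lowest, median and highest level of 34.6, 74.2 and 407 TPM in 8C and 236, 336 and 710 TPM in ENR, a log2 fold change of -2.40 (SE 0.46, adjusted p = 0.000569). Its groups overlapped through 8C replicate 2, which held 407 TPM while the other 8C libraries held at most 119 TPM. The fall of Gip was -3.78 within numbers 4 to 6 and -0.88 (adjusted p = 0.272, not called) within numbers 1 to 3, and that of Gcg was -5.92 and -5.18.

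Neurog3, the factor that commits progenitors to the endocrine fate, had 18.6, 54.6 and 94.8 TPM in 8C and 9.82, 17.7 and 28.3 TPM in ENR as lowest, median and highest levels. The groups overlapped, and the log2 fold change was 1.41 (SE 0.33, adjusted p = 0.00336). Tac1, the precursor of substance P, had 35.3, 49.9 and 83.6 TPM in 8C and 18.5, 23.6 and 29.8 TPM in ENR, without overlap, with a log2 fold change of 1.04 (SE 0.17, adjusted p = 0.000158). It was under 2-fold with quantile normalization (0.96) and within numbers 4 to 6 (0.67). Markers of neurons and glia, which also express Tac1, moved in the same direction. The 9 genes summed to 20.3 to 33.9 TPM in 8C and 4.65 to 7.69 TPM in ENR, of which 3, Ret, Uchl1 and Tubb3, averaged 1 TPM or more in organoids, and the part of such cells in the result was not tested. Among epithelial markers, 4 of Paneth cells summed to 767 to 2748 TPM in 8C and 7855 to 9410 TPM in ENR, and 5 of stem cells had medians of 1175 TPM and 3279 TPM. Also without overlap, pancreas markers were at 45.8 to 62.5 TPM and 17.1 to 34.1 TPM and those of stroma and muscle at 1.06 to 5.29 TPM and 0.297 to 0.745 TPM, and their part was not tested either.

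The other 6 genes were not called between 8C and ENR. Their log2 fold changes were 0.38 for Neurod1, 0.14 for Chga, 0.33 for Chgb, 0.17 for Tph1, -0.73 for Cck and 0.42 for Sct. For several of them the sets of replicate numbers went in different directions. Chga differed by 1.06 within numbers 1 to 3 (adjusted p = 0.00115) and by -0.41 within numbers 4 to 6, Sct by 1.86 (adjusted p = 0.00183) and -0.70, and Cck by 0.27 and -1.48 (adjusted p = 7.58e-06). Other genes of the enteroendocrine programme were read from 4 lists. Among 16 further transcription factors of the lineage, 12 were tested and 1 was called higher, Hhex (log2 fold change 1.91), a factor of delta cells, a share under the 11.9% of all genes called higher. Of 10 other hormone genes, 7 were tested and 2 rose, Ghrl (ghrelin, 1.64) and Iapp (amylin, 1.06). Of 16 genes of granules and amine storage, 15 were tested and 4 rose, Snap25 (1.43) and Rab3b (1.30) of vesicle release, Pcsk1n (1.28), an inhibitor of prohormone cleavage, and Slc18a1 (1.10), a vesicular monoamine transporter. Of 8 genes of early secretory fate and Notch signaling, 2 fell, Atoh1 (-1.27) and the Notch ligand gene Dll1 (-1.03), where 3.31% of all genes were called lower.

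8C -VE, which lacks VPA and EPZ6438 but keeps the other components of 8C, was compared with ENR. None of the 10 genes was called by limma, where 3.19% of all genes were, and at an unadjusted p under 0.05 there were 4 of the 10 genes and 2689 of all genes. The nearest were Gcg, with 5.00, 37.2 and 74.8 TPM as lowest, median and highest level in 8C -VE (log2 fold change -1.59, adjusted p = 0.103), Gip (-1.03, adjusted p = 0.127) and Chga (-0.77, adjusted p = 0.0984). Libraries of the same replicate number deviated together in these media, and with the replicate number as a block Gcg (-1.59, adjusted p = 0.0136) and Gip (-1.03, adjusted p = 0.00447) were called lower in 8C -VE. Within numbers 1 to 3, Chga (-1.18), Gcg (-2.80) and Gip (-1.43) were called lower, where 4.78% of all genes were, whereas none was within numbers 4 to 6, where 1.77% were. Sst (-2.10) was the only gene called on the programme lists.

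**Figure D2:**
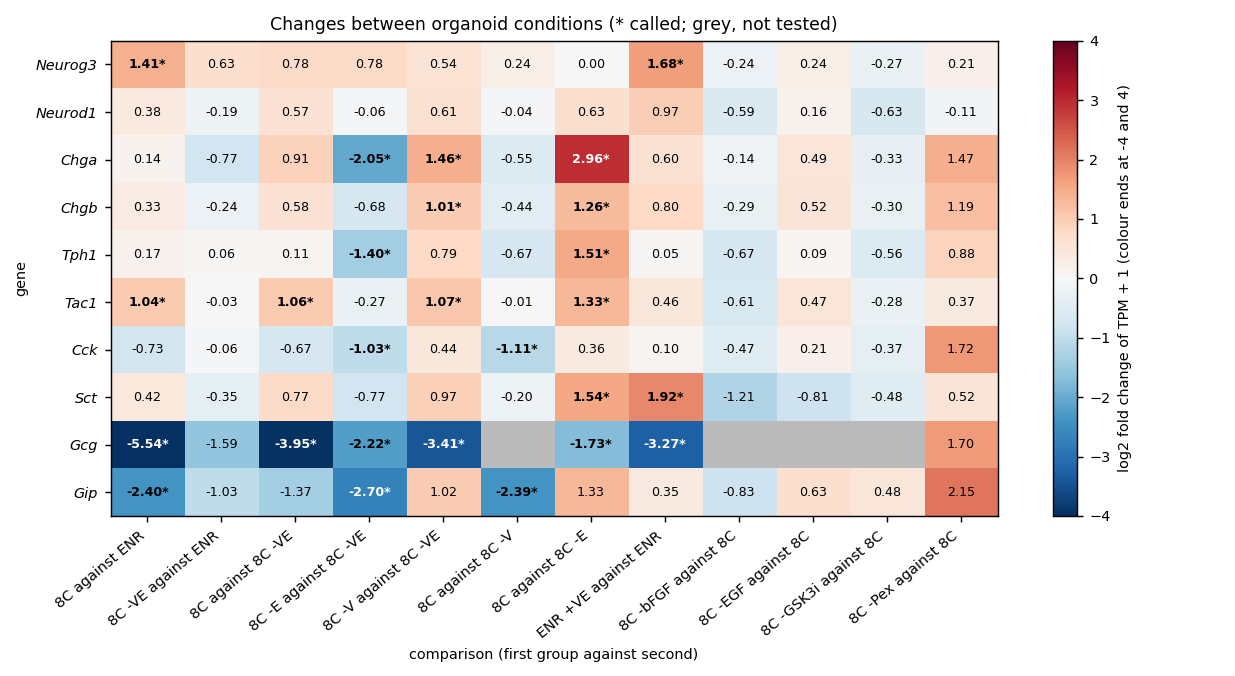
Log2 fold changes of the 10 genes (rows) in 12 comparisons of organoid media (columns), with blue for lower and red for higher in the first group named; asterisks mark calls and grey cells were not tested. Gcg is called lower in 6 of the comparisons, with values from -5.54 to -1.73.

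Adding VPA and EPZ6438 together to 8C -VE, which gives 8C, lowered Gcg and raised Tac1. Of the 10 genes 1 was called higher, where 9.06% of all genes were, and 1 lower, where 1.62% were, so the count of higher genes was at the level of all genes. Gcg had 5.00, 37.2 and 74.8 TPM as its lowest, median and highest level in 8C -VE against at most 1.35 TPM in 8C (log2 fold change -3.95, SE 0.58, adjusted p = 7.66e-05). Tac1 had 14.7, 24.1 and 34.1 TPM in 8C -VE, below the lowest 8C library at 35.3 TPM (1.06, SE 0.20, adjusted p = 0.000919), and its difference was 0.52 within numbers 4 to 6. The summed neuron and glia markers were at 4.08 to 9.13 TPM in 8C -VE, lower than in 8C as well, as were those of stroma and muscle, at 0.328 to 0.949 TPM, whereas Paneth cell markers were higher than in 8C, at 6571 to 10485 TPM, and their part was not tested. The other 8 genes had log2 fold changes of -1.37 to 0.91 and adjusted p of 0.0739 or more. Within numbers 1 to 3, however, 7 genes were called, Neurog3 (1.06), Neurod1 (1.11), Chga (2.24), Chgb (1.40), Tac1 (1.56) and Sct (1.96) higher, where 10.3% of all genes were, and Gcg (-2.38) lower, where 2.20% were. Within numbers 4 to 6 there were 3, all lower, Cck (-1.77), Gcg (-5.17) and Gip (-3.15), where 2.38% of all genes were lower. Chga differed by -0.22 and Chgb by -0.36 within numbers 4 to 6, so that the direction of the granins turned with the set.

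Further genes of the programme were compared between 8C and 8C -VE, where 9.06% of all genes were called higher and 1.62% lower. Of the 8 other hormone genes tested, 4 rose, Ghrl (2.50), Sst (somatostatin, 1.94), Iapp (1.72) and Vgf (1.48), and 6 of 15 granule genes, among them Scg5 (1.69), Rab3b (1.59), Pcsk1n (1.45) and Snap25 (1.39). Of 10 transcription factors tested, 2 rose, Lmx1a (1.27), a factor of enterochromaffin cells, and Hhex (1.24). Of the 8 genes of early secretory fate and Notch signaling, Atoh1 (-1.62) was the only one called, and it fell.

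The medium series without VPA, without EPZ6438 and without both allowed the compounds to be read one by one. VPA added alone (8C -E against 8C -VE) lowered 5 of the 10 genes and raised none, where 1.07% of all genes were called lower, a far smaller share. The median log2 fold change was -0.90 for the 10 genes and 0.03 for all genes. Chga had 9.34, 13.3 and 44.8 TPM with VPA alone as lowest, median and highest level and 43.4, 51.8 and 172 TPM without either compound (log2 fold change -2.05, SE 0.38, adjusted p = 0.00179). The groups overlapped across replicate numbers, but each of the 7 numbers had less Chga with VPA alone. Tph1 fell without overlap, its mean being 9.20 ± 2.30 TPM (SD, n = 7) without the compounds and 2.79 ± 0.43 TPM (SD, n = 7) with VPA alone (log2 fold change -1.40, SE 0.15, adjusted p = 1.78e-05). Gip fell too, from a mean of 248 TPM to 39.5 TPM (adjusted p = 0.00216), as did Gcg, from 34.6 TPM to 4.20 TPM (log2 fold change -2.22, adjusted p = 0.0198), and Cck, from 155 TPM to 68.6 TPM (-1.03, adjusted p = 0.0444). Cck was not called within numbers 1 to 3 (-0.33) or at a minimum mean of 5 TPM (adjusted p = 0.0565), and Gcg was under 2-fold within numbers 1 to 3 (-0.93). Chgb (-0.68), Sct (-0.77), Tac1 (-0.27), Neurod1 (-0.06) and Neurog3 (0.78) were not called. Neurog3 differed by 0.35 within numbers 1 to 3 and by 1.09 within numbers 4 to 6 (adjusted p = 0.00144, called). Of 8 further hormone genes tested, 3 fell, Sst (-2.83), Ucn3 (urocortin 3, -1.85) and Pyy (peptide YY of L cells, -1.78), and no gene was called on the other lists. Paneth cell markers summed to 2717 to 5662 TPM with VPA alone and 6571 to 10485 TPM without the compounds, and their part was not tested.

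EPZ6438 added alone (8C -V against 8C -VE) raised 3 of the 10 genes, where 2.96% of all genes were called higher, and lowered Gcg, where 0.261% were called lower. The 10 genes had a median of 0.88 and all genes one of -0.02. Tac1 rose without overlap, with 35.0, 53.2 and 68.0 TPM as lowest, median and highest level with EPZ6438 alone (log2 fold change 1.07, SE 0.20, adjusted p = 0.00347). Chga averaged 225 ± 111 TPM (SD, n = 6) with EPZ6438 alone and 83.3 ± 49.6 TPM (SD, n = 7) without it (log2 fold change 1.46, SE 0.38, adjusted p = 0.0326). For Chgb the means were 948 ± 326 TPM and 474 ± 172 TPM (1.01, SE 0.27, adjusted p = 0.0346). Gcg was at 0.194 to 1.63 TPM with EPZ6438 alone, below each of the 7 libraries without it (-3.41, SE 0.62, adjusted p = 0.00268). The numbers were taken to pair the libraries here, and with a replicate block Chgb (0.87) and Tac1 (0.96) were under 2-fold while Sct was called (1.18, adjusted p = 0.0122). Chga (adjusted p = 0.0550) and Chgb (adjusted p = 0.0582) were not called at a minimum mean of 5 TPM. Neurod1 (0.61, adjusted p = 0.00197) and Tph1 (0.79, adjusted p = 0.0237) passed the adjusted p but not the 2-fold limit. Gip (1.02, adjusted p = 0.192), Sct (0.97, adjusted p = 0.0923), Neurog3 (0.54) and Cck (0.44) were not called. Gip differed by 1.82 within numbers 1 to 3 (adjusted p = 0.00148, called) and by 0.09 within numbers 4 to 6, and Sct by 1.76 (adjusted p = 5.75e-06, called) and 0.60, while Chgb was under 2-fold in both (0.83 and 0.90) and Tac1 within numbers 1 to 3 (0.83). Summed neuron and glia markers were at 8.09 to 17.5 TPM with EPZ6438 alone and 4.08 to 9.13 TPM without it, and Paneth cell markers at 4871 to 6248 TPM and 6571 to 10485 TPM, and their part in the calls was not tested. Of 8 other hormone genes tested, 4 rose, led by Sst (4.00) and Ghrl (3.41), as did 5 of 14 granule genes, among them Scg5 (1.44) and Cpe (1.20), a carboxypeptidase of prohormone processing, and 3 of 12 transcription factors, Isl1 (1.45), Lmx1a (1.48) and Hhex (1.38).

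With EPZ6438 present, VPA (8C against 8C -V) lowered Gip and Cck, 2 of the 9 genes tested, where 1.11% of all genes were called lower. Gip had 287, 398 and 521 TPM without VPA as lowest, median and highest level, and 6 of the 7 libraries of 8C lay below them (log2 fold change -2.39, SE 0.45, adjusted p = 0.00238). Cck averaged 98.9 ± 68.5 TPM (SD, n = 7) with both compounds and 187 ± 35.3 TPM (SD, n = 6) without VPA (-1.11, SE 0.30, adjusted p = 0.0264), but was not called with the replicate block (-0.93, adjusted p = 0.0544). Neither gene was called within numbers 1 to 3 (Gip -1.27, Cck -0.25), where 1.24% of all genes were lower, while within numbers 4 to 6, where 2.58% were, there were 5, Gip (-3.24), Cck (-1.62), Tph1 (-1.57), Chga (-1.54) and Chgb (-1.25). The log2 fold changes of the other genes were 0.24 for Neurog3, -0.04 for Neurod1, -0.55 for Chga, -0.44 for Chgb, -0.67 for Tph1, -0.01 for Tac1 and -0.20 for Sct, and Gcg averaged under 1 TPM in these media and was not tested. Of 7 other hormone genes tested 3 fell, Sst (-2.07), Nts (neurotensin) and Pyy (-1.52), with Atoh1 on the list of early secretory fate. Marker sums of other cell types differed without overlap as well, those of Paneth cells at 767 to 2748 TPM in 8C and 4871 to 6248 TPM in 8C -V and those of tuft cells at 7.22 to 14.4 TPM and 14.7 to 52.1 TPM. Neuron and glia markers were at 20.3 to 33.9 TPM and 8.09 to 17.5 TPM and pancreas markers at 45.8 to 62.5 TPM and 24.7 to 34.0 TPM, and the part of these in the result was not tested.

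With VPA present, EPZ6438 (8C against 8C -E) raised 5 of the 10 genes, where 3.97% of all genes were called higher, and lowered Gcg, where 0.229% were called lower. The medians were 1.29 for the 10 genes and -0.02 for all genes. Chga had the largest change of the 10, with 64.7, 122 and 274 TPM as lowest, median and highest level in 8C against 9.34, 13.3 and 44.8 TPM in 8C -E (log2 fold change 2.96, SE 0.36, adjusted p = 4.43e-05). Chgb (1.26, adjusted p = 0.000975), Tph1 (1.51, adjusted p = 0.000803) and Tac1 (1.33, adjusted p = 8.27e-05) also rose without overlap of the groups, and Sct rose with overlap (1.54, adjusted p = 0.0214). Gcg fell by 1.73 (adjusted p = 0.001). Summed neuron and glia markers were at 20.3 to 33.9 TPM in 8C and 5.29 to 12.1 TPM in 8C -E, and their part in the rise of Tac1 was not tested. Within numbers 4 to 6 Chga (1.82), Tph1 (1.02) and Tac1 (1.07) were called higher, where 5.14% of all genes were, whereas Chgb (0.58) and Sct (0.90) were under 2-fold. Gip (1.33, adjusted p = 0.239), Neurod1 (0.63), Cck (0.36) and Neurog3 (0.00054) were not called. Gip differed by 2.97 within numbers 1 to 3 (adjusted p = 0.0269, called) and by -0.46 within numbers 4 to 6, and Neurod1 by 1.29 (adjusted p = 0.00358, called) and -0.29. Of 7 other hormone genes tested, 5 rose, led by Sst (4.77) and Ghrl (3.76), with 6 of 15 granule genes and 2 of 10 transcription factors.

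**Figure D3:**
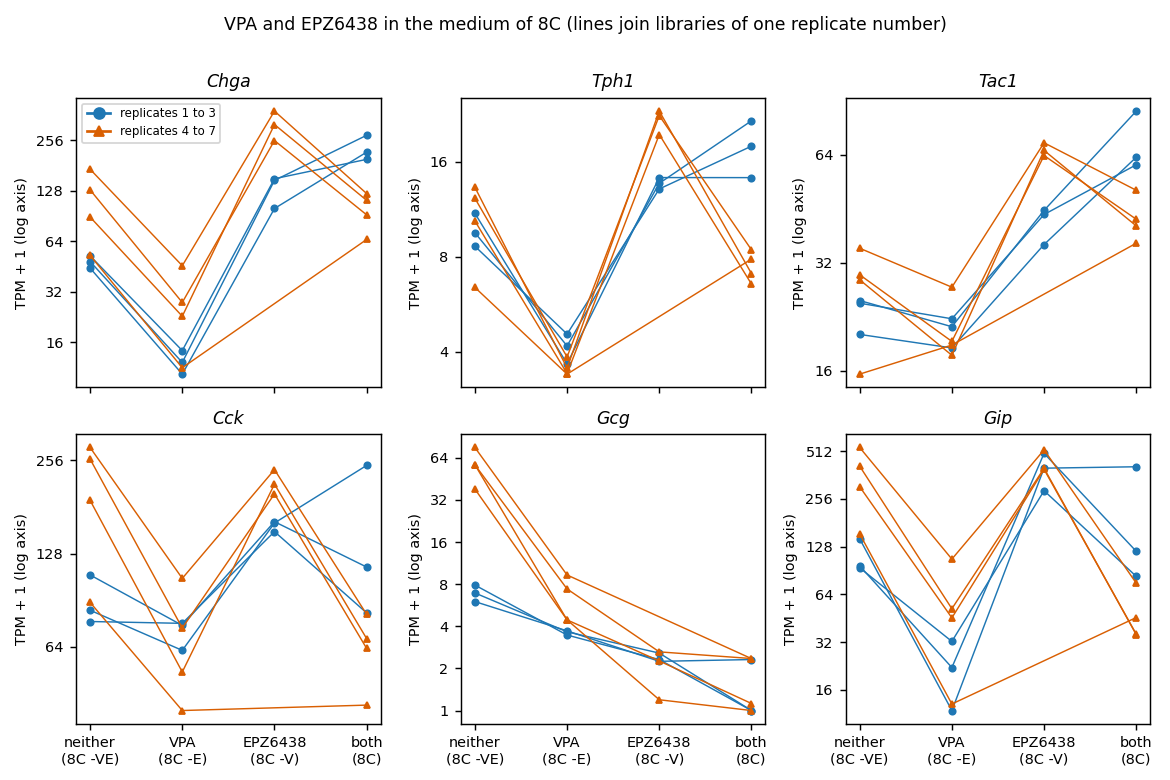
Levels of 6 genes as TPM + 1 on a log axis in the 4 media that differ in VPA and EPZ6438, with a line for each replicate number; replicate 7 has no library with EPZ6438 alone. Chga and Tph1 are lowest with VPA alone in all 7 lines and Gip in 4 of them, and Gcg is near the floor in both media with EPZ6438.

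Whether the effect of each compound differed with the other was tested by the interaction of VPA and EPZ6438. No gene of the 10 was called by limma, where 0.581% of all genes were, with 3 of the 10 genes and 478 of all genes at an unadjusted p under 0.05. Chga (1.50, SE 0.55, adjusted p = 0.598), Gcg (1.68, SE 0.70, adjusted p = 0.899) and Tph1 (0.73, SE 0.33, adjusted p = 1) had the smallest p-values. These differences of log2 fold changes had wide errors, and a lack of calls does not show that the effects were additive.

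In the ENR medium, VPA and EPZ6438 (ENR +VE against ENR) raised Neurog3 and Sct and lowered Gcg. Of the 10 genes, 2 were called higher, where 8.13% of all genes were, and 1 lower, where 0.738% were. Neurog3 was at 64.9, 56.1 and 61.5 TPM in the 3 libraries of ENR +VE, above each of the 7 ENR libraries at 9.82 to 28.3 TPM (log2 fold change 1.68, SE 0.27, adjusted p = 0.000896). Sct was at 118, 107 and 126 TPM against a median of 30.0 TPM and a highest level of 59.8 TPM in ENR (1.92, SE 0.29, adjusted p = 0.000669). Gcg was at 5.42, 6.72 and 6.05 TPM, below the lowest ENR library at 37.3 TPM (-3.27, SE 0.28, adjusted p = 8.05e-06). Chga (0.60), Chgb (0.80), Tac1 (0.46) and Neurod1 (0.97) passed the adjusted p but not the 2-fold limit. Without that limit 7 of the 10 genes passed, as did 2552 of the 12324 genes tested. Chga, Chgb and Tac1 lay above every ENR library, and how many of all genes did so was not counted. Tph1 (0.05), Cck (0.10) and Gip (0.35) did not pass. All 3 calls held without each ENR +VE library in turn, and Neurod1 was called as well without replicate 3 and against ENR numbers 4 to 6 (1.40). Ghrl (2.64), Iapp (1.24) and Vgf (1.08) rose of 7 other hormone genes tested, 5 of 15 granule genes, among them Scg3 (1.30), Snap25 (1.23), Rab3b (1.05) and Pcsk1 (1.02), and Hhex (1.57) and Lmx1a (1.23) of 14 transcription factors. Summed neuron and glia markers were at 13.6 to 14.7 TPM in ENR +VE and 4.65 to 7.69 TPM in ENR, Paneth cell markers at 2960 to 3299 TPM and 7855 to 9410 TPM, epithelial markers at 6138 to 6353 TPM and 6854 to 10476 TPM and those of stroma and muscle at 2.20 to 3.63 TPM and 0.297 to 0.745 TPM, and their part was not tested.

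The effect of VPA and EPZ6438 in the 8C medium less that in the ENR medium was tested directly. No gene of the 10 was called by limma, where 0.58% of all genes were, with 2 of the 10 genes and 811 of all genes at an unadjusted p under 0.05. The difference was -1.72 for Gip (SE 0.76, adjusted p = 0.68), 0.61 for Tac1 (SE 0.29, adjusted p = 0.747), -1.15 for Sct (SE 0.58, adjusted p = 0.815) and -0.68 for Gcg (SE 0.81, adjusted p = 1) on the log2 scale. Gcg had its highest library with the compounds at 1.35 TPM in the 8C medium and at 6.72 TPM in ENR. Atoh1 (-1.30) was the only gene of the programme lists that differed.

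Omitting bFGF, EGF, GSK3iXV or Pexmetinib from 8C called none of the genes by limma against all 7 libraries of 8C. In the order of the deposited columns, the libraries of these omissions stand among numbers 4 to 6 of 8C. The labels do not say what that order stands for. In 8C -bFGF 0.00779% of all genes were called, and at an unadjusted p under 0.05 there were 713 of all genes and 2 of the 9 enteroendocrine genes tested. The same figures were 0.451%, 1626 and 0 of 9 in 8C -EGF, and 0%, 836 and 0 of 9 in 8C -GSK3i. In 8C -Pex they were 0.482%, 1676 and 6 of 10. The largest differences were those of 8C -Pex, in which Chgb was at 1685, 1475 and 1420 TPM and Chga at 558, 325 and 309 TPM, above all 7 libraries of 8C. Their log2 fold changes were 1.19 (SE 0.28, adjusted p = 0.102) and 1.47 (SE 0.39, adjusted p = 0.139), beside 2.15 for Gip (adjusted p = 0.199), 1.72 for Cck (adjusted p = 0.107), 1.70 for Gcg (adjusted p = 0.0924) and 0.88 for Tph1 (adjusted p = 0.34). Against 8C numbers 4 to 6 alone, 6 genes were called higher in 8C -Pex, Chga (1.82), Chgb (1.60), Tph1 (1.44), Cck (2.01), Sct (1.50) and Gip (2.92), where 0.532% of all genes were, whereas against numbers 1 to 3, where 3.38% were, Gcg was the only one (1.84). Of 7 other hormone genes tested 2 were called, Ghrl (2.23) and Iapp (2.17), with Scg2 (1.64), Pcsk1 (1.21) and Atoh1 (1.44). Tuft cell markers summed to 28.6 to 49.8 TPM in 8C -Pex and 7.22 to 14.4 TPM in 8C, goblet cell markers to 5639 to 8098 TPM and 2846 to 4975 TPM, mast cell markers to 3.52 to 14.4 TPM and 0.107 to 2.53 TPM and pancreas markers to 33.0 to 34.6 TPM and 45.8 to 62.5 TPM, and their part was not tested. Against 8C numbers 1 to 3 alone, 5 genes were lower in 8C -bFGF, namely Neurog3 (-1.02), Neurod1 (-1.21), Tph1 (-1.38), Tac1 (-1.01) and Sct (-2.19), where 2.37% of all genes were lower, and 5 in 8C -GSK3i, where 3.06% were, namely Neurog3 (-1.05), Neurod1 (-1.25), Chga (-1.04), Tph1 (-1.27) and Sct (-1.45). Against 8C numbers 4 to 6 none of the 9 genes tested was called by limma for either omission, where 1 and 7 of all genes were. For 8C -EGF, Sct was lower against numbers 1 to 3 (-1.79), where 1.72% of all genes were, and Gip was higher against numbers 4 to 6 (1.40), where 0.728% were. Some marker sums also lay apart from all 7 libraries of 8C in these media. In 8C -GSK3i, enterocyte markers summed to 4957 to 6615 TPM, against 1486 to 4177 TPM in 8C. Its tuft cell markers summed to 21.5 to 26.4 TPM, against 7.22 to 14.4 TPM. In 8C -bFGF, pancreas markers were lower, at 37.4 to 42.6 TPM. In 8C -EGF, Paneth, tuft and stem cell markers were higher and those of enterocytes and pancreas lower. The part of these shifts was not tested.

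The genes whose levels ran most alike were found over the 49 organoid libraries by Pearson correlation of log2(TPM + 1) with 12625 genes. This is a description, since libraries of a medium share that medium and genes are not independent. Chgb was closest to Cpe (r = 0.957), Chga (0.923) and Cplx1 (0.910), a gene of vesicle release. Chga was closest to Sst (0.947), Chgb (0.923) and Scgn (0.897), Tph1 to Hepacam2 (0.909), Chgb (0.857) and Trpa1 (0.849), an ion channel of enterochromaffin cells, and Tac1 to Ptprn (0.903), Cpe (0.894) and Pcsk1n (0.889). The genes closest to Neurog3 were Tpst1 (0.894), Chpf (0.864) and Rps6ka6 (0.861), none of them on the lists used here. Cck and Gip, a pair named after its value was seen, were each other's closest gene (0.864). Over the 10 media means the order of likeness was not the same, with Cpe first for Chgb and Hepacam2 first for Tph1 but Tpst1 in place 13 for Neurog3.

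In crypts, levels of the 10 genes were followed after irradiation. Neurod1 was at 0.210 to 1.16 TPM in all 18 libraries and fell under the filter of 1 TPM, so 9 genes were tested, with all 18 libraries in 1 fit. The share of mitochondrial transcripts moved with the groups, at 12.7% to 18.1% in Normal, 29.7% to 31.8% on day 1, 32.6% to 39.9% on day 2, 37.9% to 48.4% on day 3 and 11.8% to 12.3% on day 5 after irradiation. With treatment it was 17.4% to 23.4% on day 1, 26.3% to 29.2% on day 2 and 10.6% to 15.1% on day 5. Against Normal the median gene moved by -0.36 on day 1, -0.61 on day 2, -1.03 on day 3 and 0.27 on day 5 (log2), so the values of the 9 genes are to be read against these medians. Stem cell markers summed to 231 to 432 TPM in Normal and to medians of 51.0 TPM on day 1, 16.3 TPM on day 2 and 16.5 TPM on day 3, and mast cell markers to 48.9 to 77.6 TPM in Normal and at most 12.3 TPM in the irradiated groups. Immune cell markers summed to 17.5 to 22.1 TPM in Normal and to at most 11.6 TPM on days 1, 2, 3 and 5 without treatment. Enterocyte markers summed to 6552 to 13172 TPM in Normal, 16314 to 17925 TPM on day 1 and 30617 to 36663 TPM on day 2, and Paneth cell markers to 10360 to 25604 TPM in Normal and 5176 to 7425 TPM on day 2. Goblet cell markers were at 6862 to 8277 TPM in Normal and 10279 to 10352 TPM on day 1. Neuron and glia markers were at 1.53 to 1.68 TPM in Normal and 1.04 to 1.48 TPM on day 1. They were at 1.78 to 4.15 TPM on day 2 and 1.92 to 2.29 TPM on day 3. Markers of tuft cells, pancreas, and stroma and muscle also lay below Normal on some of these days. The part of these shifts in the changes below was not tested.

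**Figure D4:**
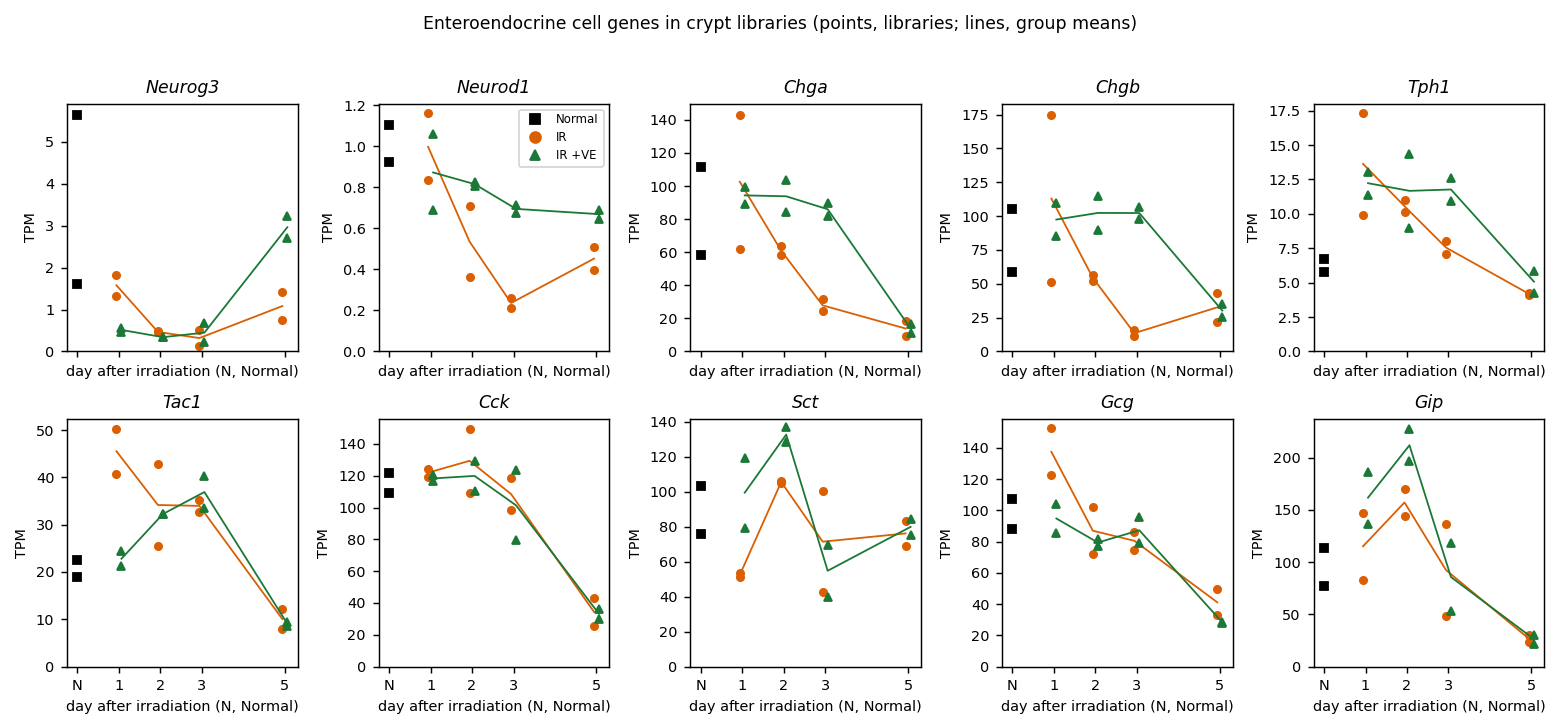
Level of each gene in TPM in the 18 crypt libraries against the day after irradiation, with Normal at N; points are libraries and lines join group means without and with VPA and EPZ6438. On day 3 Chga and Chgb lie lower without treatment than with it, and on day 5 Chga, Cck, Gcg and Gip are low in both groups.

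On day 1, Tac1 was higher than in Normal, at 50.3 and 40.8 TPM against 22.6 and 18.9 TPM (log2 fold change 1.10, SE 0.25, adjusted p = 0.0125). It was the only one of 9 genes called higher, where 1.43% of all genes were, and it was under 2-fold without IR day 1 replicate 1 (0.95) or Normal replicate 2 (0.97). Tph1, at 17.3 and 9.92 TPM against 5.75 and 6.72 TPM, passed the adjusted p alone (0.97, adjusted p = 0.0306). On day 2, Neurog3 was called lower, where 26.2% of all genes were, at 0.478 and 0.453 TPM against 1.60 and 5.64 TPM (-1.50, SE 0.34, adjusted p = 0.00272). The call rests on Normal replicate 2, without which the log2 fold change was -0.83 (adjusted p = 0.0505). With quantile normalization 7.77% of all genes were lower and 9.58% higher on day 2, and Tph1 (1.31) and Tac1 (1.16) were called higher beside Neurog3 lower (-1.08). With mitochondrial genes removed 12.8% were lower and 7.47% higher, Tph1 (1.11) and Tac1 (1.09) were higher and Neurog3 was lower (-1.49). On day 1 the programme lists held 1 call, Hes1 (-1.23), a target of Notch signaling and 1 of 8 genes tested on its list, where 5.48% of all genes were called lower. On day 2 Sst (1.85) and Iapp (1.59) of 5 other hormone genes tested and Slc18a1 (1.08) of 8 granule genes rose, where 4.55% of all genes were called higher, whereas Nkx2-2 (-1.27), Ddc (-1.24), Hes1 (-1.93) and Dll1 (-1.67) fell.

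On day 3, Chgb, Chga and Neurog3 were called lower than in Normal, where 51.3% of all genes were, a larger share than that of the 9 genes. Chgb was at 15.7 and 11.3 TPM against 58.4 and 105 TPM (log2 fold change -2.47, SE 0.47, adjusted p = 0.000454), Chga at 31.5 and 24.2 TPM against 58.4 and 111 TPM (-1.51, SE 0.39, adjusted p = 0.0028) and Neurog3 at 0.134 and 0.505 TPM (-1.67, SE 0.34, adjusted p = 0.000538). Cck, at 119 and 98.5 TPM against 122 and 109 TPM, and Gcg, at 86.4 and 74.6 TPM against 107 and 88.2 TPM, were at similar levels. The day 3 libraries stood far apart for Gip, at 136 and 48.7 TPM against 76.7 and 113 TPM. The same held for Sct, at 101 and 42.4 TPM against 103 and 76.0 TPM. Scaling changed these calls. With quantile normalization Chgb was lower (-1.37, adjusted p = 0.0338), Chga (-0.52) and Neurog3 (-0.92) were not called, Tac1 (1.69) and Tph1 (1.44) were called higher, and Cck (0.79), Gcg (0.65), Sct (0.51) and Gip (0.74) changed from negative to positive. Calls over all genes were then 11.1% higher and 12.2% lower. With mitochondrial genes removed, Neurog3 (-1.69) and Chgb (-1.86) were called lower, where 30.7% of all genes were, and Tac1 (1.34) higher, where 5.37% were. Without Normal replicate 2, Neurog3 was under 2-fold (-0.99). Of the further genes, 6 of 8 of early secretory fate and Notch signaling fell, led by Dll1 (-2.95), Hes1 (-2.61), Dll4 (-1.52) and Atoh1 (-1.34), with Ddc (-2.81), which encodes the enzyme that acts after TPH1 in serotonin synthesis, and the transcription factor Nkx2-2 (-1.16), beside the median of -1.03 over all genes.

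On day 5 hormone genes were among those that fell. Of the 9 genes 5 were called lower than in Normal, where 5.61% of all genes were, while the median of all genes was 0.27 and that of the 9 genes -1.25. Chga was at 18.5 and 9.20 TPM (log2 fold change -2.53, SE 0.39, adjusted p = 0.000359), Cck at 43.2 and 25.6 TPM (-1.76, SE 0.26, adjusted p = 0.000193), Gcg at 49.4 and 32.8 TPM (-1.25, SE 0.23, adjusted p = 0.00118) and Gip at 29.9 and 23.5 TPM against 76.7 and 113 TPM in Normal (-1.78, SE 0.45, adjusted p = 0.0118). Neurog3 (-1.01, adjusted p = 0.0396) was the weakest, at -0.34 without Normal replicate 2. Chgb (-1.32, adjusted p = 0.0538), Tac1 (just under 2-fold, adjusted p = 0.00827), Tph1 (-0.48) and Sct (-0.22) were not called. Without IR day 5 replicate 2 only Chga and Cck were called, Gip (-1.61) with an adjusted p of 0.0778 and Gcg at -0.96, and without Normal replicate 2 Gip had an adjusted p of 0.0704. Chga, Cck, Gcg and Gip were called lower under quantile normalization and with mitochondrial genes removed as well. Of 5 other hormone genes tested, 4 fell, Ghrl (-1.93), Pyy (-1.30), Sst (-1.25) and Nts (-1.08), with the transcription factor Nkx2-2 (-1.54) and Dll1 (-1.39). Marker sums that differed from Normal without overlap were those of Paneth cells, at 6262 to 7073 TPM on day 5 and 10360 to 25604 TPM in Normal, immune cells (3.71 to 4.20 and 17.5 to 22.1 TPM), pancreas (43.4 to 54.9 and 80.6 to 160.1 TPM), stem cells (128 to 181 and 231 to 432 TPM), stroma and muscle (0.225 to 0.310 and 1.59 to 2.14 TPM), mast cells (1.22 to 1.85 and 48.9 to 77.6 TPM) and, higher on day 5, tuft cells (4.72 to 8.17 and 2.65 to 3.47 TPM), and their part was not tested.

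The effect of VPA and EPZ6438 after irradiation was read within each day. On day 1 no gene of the 9 was called by limma, where 0.00926% of all genes were, with 4 of the 9 and 1424 of all genes at an unadjusted p under 0.05. Tac1 had the smallest p of them, at 24.3 and 21.3 TPM with treatment against 50.3 and 40.8 TPM (log2 fold change -0.96, adjusted p = 0.235). On day 2 none was called, where 8.38% were, with 0 and 3965 at an unadjusted p under 0.05. Dll1 (1.38) was called higher, 1 of 8 genes tested on the list of early secretory fate, where 8.31% of all genes were. With quantile normalization, or with mitochondrial genes removed, 0 of all genes were called on day 2, so the call of Dll1 did not hold. On day 5 none was called, where 0.0185% were, with 2 and 178. Neurog3 on day 5 averaged 2.96 TPM with treatment and 1.08 TPM without, and its libraries did not overlap (log2 fold change 0.94, adjusted p = 1).

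On day 3, Chgb and Chga were higher with treatment, 2 of 9 genes where 31.6% of all genes were called higher, so that the share was near or under that of all genes. Chgb was at 107 and 97.8 TPM with treatment against 15.7 and 11.3 TPM without (log2 fold change 2.85, SE 0.47, adjusted p = 0.000608), and Chga at 90.0 and 81.9 TPM against 31.5 and 24.2 TPM (1.60, SE 0.39, adjusted p = 0.0037). The median of all genes was 0.69 in this comparison and that of the 9 genes 0.11. The other 7 genes had log2 fold changes of -0.30 to 0.58. With quantile normalization Chgb was 2.30 (adjusted p = 0.00799) and Chga 1.13 (adjusted p = 0.0501, not called), where 7.02% of all genes were higher, and with mitochondrial genes removed they were 2.62 and 1.35, both called, where 26.9% were. Other measures moved with treatment on this day. Mitochondrial transcripts took 37.9% to 48.4% without it and 25.4% to 41.5% with it, epithelial markers summed to 2351 to 3573 TPM and 4914 to 5148 TPM, tuft cell markers to 1.56 to 2.08 TPM and 7.57 to 7.61 TPM and immune cell markers to 5.21 to 8.31 TPM and 12.2 to 15.3 TPM. Paneth cell markers were at 10742 to 20766 TPM without treatment and 21670 to 31009 TPM with it, stem cell markers at 14.9 to 18.04 TPM and 26.2 to 42.3 TPM, those of stroma and muscle at 0.463 to 0.831 TPM and 1.83 to 2.67 TPM and those of neurons and glia at 1.92 to 2.29 TPM and 2.92 to 3.20 TPM, and the part of these measures in the result was not tested. The treated replicate 2 held pancreatic transcripts, with 6 pancreas markers at 613 TPM in sum against 77.7 TPM in replicate 1, and Ins2 at 71.2 against 0.369 TPM. Without this library both Chgb and Chga were called, in a fit where the lone treated library was assumed to vary like the other groups, and the part of these transcripts in the result was not tested. Of the further genes, Sox9 (2.40), Sox4 (1.86), Hes1 (1.48) and Dll1 (1.05) rose of 8 of early secretory fate and Notch signaling, and none of the hormone, granule and transcription factor lists was called.

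**Figure D5:**
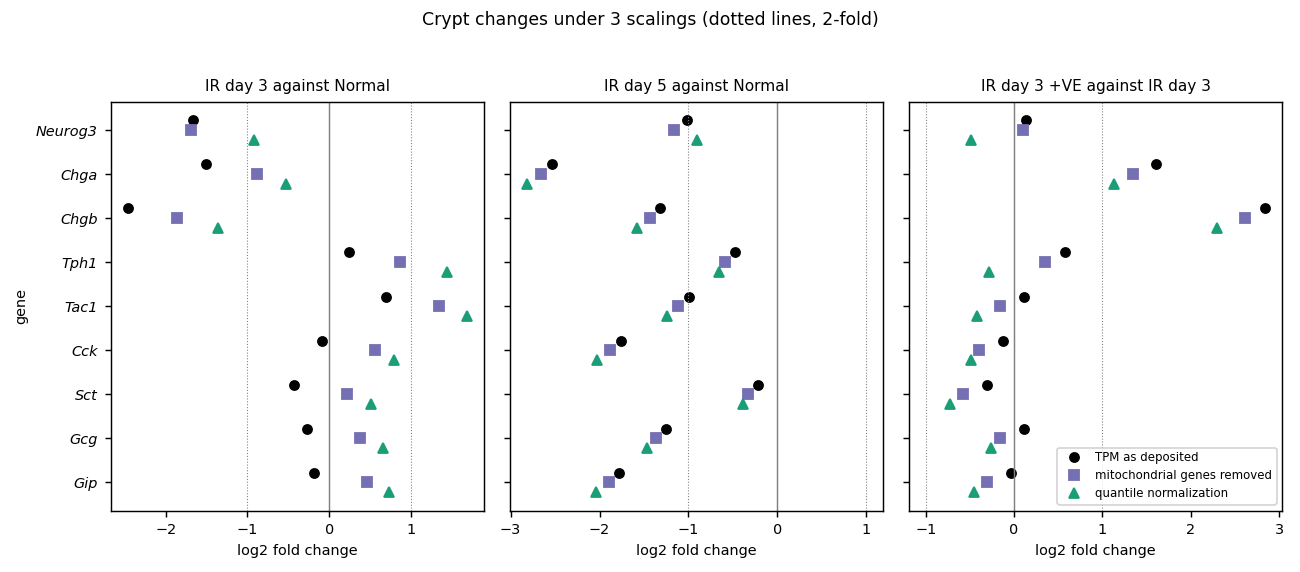
Log2 fold changes of the 9 tested genes in 3 crypt comparisons under 3 scalings, with dotted lines at 2-fold. On day 3 against Normal the points move to the right with quantile normalization, so that Cck, Gcg, Sct and Gip change sign, while on day 5 the points stay on the left.

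Whether the effect of treatment differed between days was tested with an F test. No gene of the 9 was called by limma, where 1.75% of all genes were, with 4 of the 9 and 3030 of all genes at an unadjusted p under 0.05. The smallest p was that of Chgb (F = 8.13, adjusted p = 0.0612), for which the log2 fold change with treatment was 0.03 on day 1, 0.89 on day 2, 2.85 on day 3 and -0.05 on day 5. Sox9 was the only gene of the programme lists that was called (adjusted p = 0.0498).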

How the data were processed

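RNA libraries (NEBNext Ultra RNA kit) were sequenced as pairs of 150-base reads on an Illumina HiSeq instrument. As deposited, the values are TPM for 29579 genes in 67 libraries. Per the labels and the methods of the study, the authors trimmed reads with Trimmomatic 0.39, aligned them to mm10 with STAR 2.7.3a and counted them with featureCounts. How counts became TPM, and whether strand was used, is not given in the sources used here. TPM keeps no read numbers, so depth is unknown and no counting interval can be given. The totals are 983801 to 988144 in organoids and 819346 to 910935 in crypts.

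From these values log2(TPM + 1) was tested with limma 3.58.1 in R 4.3.3 (empirical Bayes with trend, robust), over genes with an average of 1 TPM or more in the fit. Organoid media were compared in fits of the groups concerned, and all 18 crypt libraries shared a fit. A call needed a Benjamini-Hochberg adjusted p under 0.05 over all genes tested and a 2-fold change. Fits of 8C against ENR, 8C -Pex against 8C and IR day 3 against Normal were also run on simulated data with known changes. The outcome of those runs is not given here. Alternatives were a pseudocount of 0.1, minimum means of 5 TPM and of none, quantile normalization, no fold limit, other sets of groups in the fit, a replicate block, fits within replicate numbers 1 to 3 and 4 to 6, removal of mitochondrial genes and leaving out replicates. A block with 8C numbers shifted by 3 and a crossed block were added after the data were seen. Leaving out a crypt library leaves 1 in its group, which is assumed to vary like the other groups of the fit. The genes and lists were chosen with earlier results of these data known. All 10 genes entered each comparison where they passed the filter, and those not named singly are given by ranges, counts or figures. From 4 lists of the enteroendocrine programme, up to 4 called genes with the largest changes are named in 8C against ENR, 8C against 8C -VE, ENR +VE against ENR and IR day 3 against Normal, and those named elsewhere were chosen after their values were seen. The 3 genes most like a gene are named for the 5 genes with the highest correlations. Same-numbered libraries deviated together, with every pair's correlation over 0.1, in 8C -VE against ENR (lowest 0.313), 8C -E against 8C -VE (0.647), 8C -V against 8C -VE (0.69) and 8C against 8C -V (0.106), and the numbers were taken to pair the libraries there. Gene positions are from GENCODE vM21 and promoter windows from RefSeq (GRCm38.p6). Some genes of the lists are not reported here.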

Additional observations from a re-analysis of the deposited data

Results flagged for a closer look

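Within groups of 4 to 10 libraries, the gap of the highest or lowest library to its neighbour, as a share of the whole range on the log2(TPM + 1) scale, was set against Dixon's 95% critical value for each of the 10 genes. Of 50 gene and group pairs tested, 4 exceeded it, where chance gives about 1 in 20. Neurog3 in 8C -E replicate 7 was at 27.2 TPM while the other 6 libraries held 50.8 to 65.8 TPM, a share of 0.705. Chgb in ENR replicate 7 was at 355 TPM and the others at 525 to 588 TPM (0.775). Sct in 8C -VE replicate 7 was at 58.8 TPM and the others at 16.7 to 22.9 TPM (0.755). Gcg in 8C -V replicate 5 was at 0.194 TPM and the others at 1.25 to 1.63 TPM (0.802). The libraries with number 7 gave 3 of the 4. On the TPM scale, a choice made after the data were seen, 7 pairs exceeded it, these 4 (shares of 0.611, 0.729, 0.854 and 0.736) and Gip in 8C replicate 2 (407 TPM, the others 34.6 to 119 TPM, 0.775), Cck in 8C replicate 2 (246 TPM, the others 40.5 to 115 TPM, 0.638) and Gip in 8C -E replicate 4 (106 TPM, the others 10.9 to 51.0 TPM, 0.577).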

How the results depend on the processing

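For single genes, 1917 of 2234 alternatives kept the direction and the call, 160 moved without a call, 105 gained a call, 52 lost one and 0 reversed a called value. Counts of the 10 genes called stayed within 1.5 times of those given in 196 of 245 alternatives, and the others follow. With a replicate block they were 2 for 8C -VE against ENR, 1 for 8C against 8C -V, and 5 each for 8C -bFGF and 8C -GSK3i, where the pairs do not all deviate together, and the block changed no other count by that much. Where the numbers were taken to pair the libraries, it changed no call beyond those given in the report. With 8C numbers shifted by 3 they were 1 for 8C -EGF, 1 for 8C -GSK3i and 7 for 8C -Pex. With all 10 media in the fit they were 1 for 8C -VE against ENR and 3 for 8C -Pex. Within numbers 1 to 3 they were 3 for 8C -VE against ENR, 7 for 8C against 8C -VE, 3 for 8C -E against 8C -VE, 0 for 8C against 8C -V, 5 for 8C -bFGF, 1 for 8C -EGF, 5 for 8C -GSK3i and 1 for 8C -Pex. Within numbers 4 to 6 they were 5 for 8C against 8C -V, 1 for 8C -EGF and 6 for 8C -Pex. With no minimum mean they were 3 for 8C -E against 8C -VE, 2 for 8C -V against 8C -VE, 1 for 8C against 8C -V, 0 for IR day 1, 0 for IR day 2, 2 for IR day 5 and 1 for IR day 3 +VE. At 5 TPM they were 2 for 8C -V against 8C -VE, 0 for IR day 2 and 1 for the effect by day, which a pseudocount of 0.1 also made 1. That pseudocount gave 2 for IR day 1. Quantile normalization gave 2 for 8C -V against 8C -VE, 2 for IR day 1, 3 for IR day 2 and 1 for IR day 3 +VE, and removal of mitochondrial genes gave 2 for IR day 1 and 3 for IR day 2. Without a fold limit they were 7 for ENR +VE against ENR, 2 for IR day 1 and 3 for IR day 2. With only the 2 groups in the fit, IR day 1 had 0. Leaving out each replicate gave 0 to 2 for IR day 1, 0 to 2 for IR day 2 and 2 to 6 for IR day 5. The crossed block gave 1 for IR day 1 and 1 for IR day 2, as did the block as numbered. The cause of these changes was not tested.

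Quantile normalization moved the share of calls that were higher from 78.3% to 61.3% for 8C against ENR, from 84.9% to 69.4% for 8C against 8C -VE, from 78.7% to 65.1% for 8C against 8C -V, from 91.7% to 70.9% for ENR +VE against ENR and from 45.2% to 55.4% for the difference between media. In crypts it moved from 20.7% to 62.3% on day 1, from 14.8% to 55.2% on day 2, from 4.75% to 47.6% on day 3 and from 64.6% to 46.3% on day 5 against Normal, and from 99.8% to 67.4% for IR day 3 +VE, while the calls of IR day 2 +VE fell to 0. Comparisons with 8C share its 7 libraries, those with ENR share its 7, and those with Normal share its 2. Groups of 2 or 3 libraries and the unknown depth limit what could be called, and Neurod1 in crypts and Gcg in 4 comparisons of media fell under the filter and were not tested.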
